A study of Mus musculus with 8 samples.

Results

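The transcription factors that set up and maintain the macrophage lineage were followed across 8 RNA-seq libraries of mouse bone marrow-derived macrophages, a primary culture in which marrow precursors mature into macrophages. All cultures carried floxed Opa1 alleles (OPA1f/f) and all had received interleukin 4 (IL-4), the cytokine of alternative activation, for 24 h. The 4 libraries labelled CKO (replicates 2, 6, 7 and 8) also carried Lyz2-Cre, a driver that puts Cre recombinase under the lysozyme 2 gene and is active in the myeloid line. The 4 libraries labelled FLOX (replicates 3, 4, 6 and 7) did not carry Cre. No library without floxed alleles, with Cre alone or without IL-4 was part of the comparison, and nothing in the labels states that the replicates are different animals. The p-values thus reflect library-to-library spread alone, which may be technical, and Opa1 deletion and the Cre driver cannot be told apart. The members were chosen by gene symbol: Spi1, Cebpa, Cebpb, Cebpd, Maf, Runx1, Klf2, Klf4 and Klf6, 9 of the 24421 symbols counted, and all 9 passed the filter on low counts.

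PU.1, encoded by Spi1, is an ETS factor that opens myeloid enhancers and is required to make macrophages. C/EBP factors are leucine zipper proteins that bind many of the same enhancers. C/EBP-alpha, encoded by Cebpa, is needed for the step from stem and progenitor cells to the granulocyte and monocyte line, and C/EBP-beta and C/EBP-delta act in mature and activated cells. Runx1 is the DNA-binding partner of CBF-beta and acts early in blood formation. c-MAF, encoded by Maf, is a large MAF factor of mature and tissue-resident macrophages. The Krüppel-like zinc finger factors restrain (Klf2), direct (Klf4, a factor of monocyte differentiation and of the IL-4 response) or enhance (Klf6) inflammatory gene expression.

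In CKO, 4 of the 9 factors were called lower and none higher. Cebpa fell to 65.4% of FLOX, Cebpb to 74.0%, Maf to 85.4% and Klf2 to 74.7% (edgeR quasi-likelihood test, adjusted p under 0.05). Spi1, Cebpd, Runx1, Klf4 and Klf6 did not pass the test. The call of Cebpa and Cebpb held in all 17 other fits of the counts, that of Maf in 13 and that of Klf2 in 6. The count has to be read against a comparison in which 45.4% of all 11519 tested genes were called, 21.6% lower and 23.8% higher, so 4 of 9 in either direction is close to the share among all genes. In the lower direction alone 4 of 9 stands beside 21.6%, a description with no test, since the members were chosen with earlier results known. No member was called higher by edgeR, DESeq2 or limma-voom, and 0 were higher at an unadjusted p under 0.05 with each of the 3. The median log2 fold change of the members was -0.19, against -0.02 over all tested genes. The median size of the change, whatever its sign, was 0.19 for the members and 0.23 for all tested genes. Ranges of CPM (counts scaled to library size) did not overlap between the groups for 3 of the 9, Cebpa, Cebpb and Maf, against 42.7% of all tested genes.

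**Figure D1:**
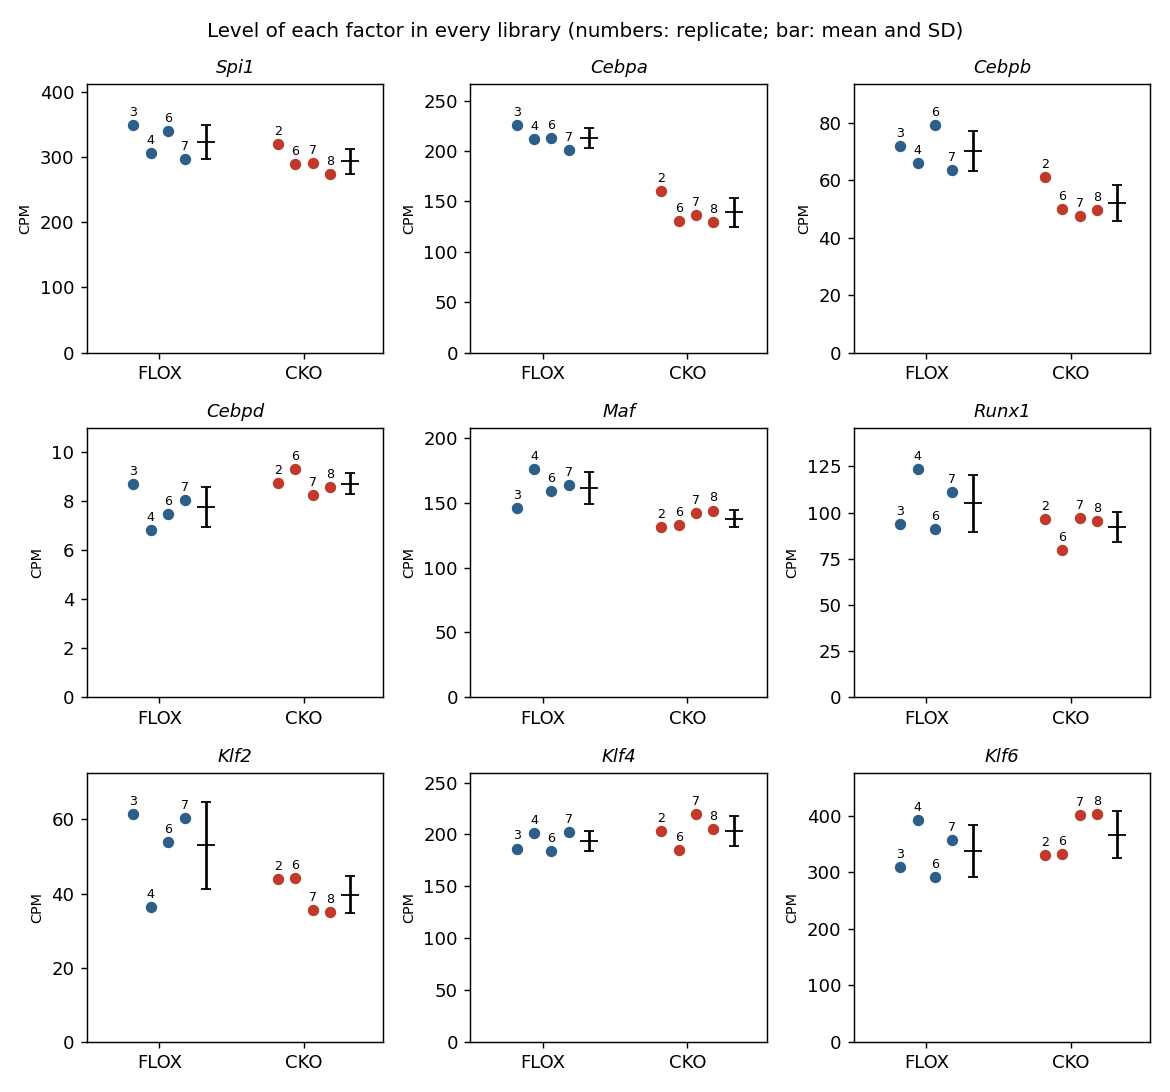
Level of each factor in CPM (vertical axes, each starting at 0) in the 4 FLOX libraries (blue) and the 4 CKO libraries (red); points carry the replicate number and black bars give the mean and SD. All CKO libraries lie under all FLOX libraries for Cebpa, Cebpb and Maf, whereas FLOX replicate 4 lies within the CKO range for Klf2.

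As a check of the labels, Opa1, the floxed gene, ranged from 94.6 to 104.6 CPM in the CKO libraries and from 103.6 to 130.4 CPM in the FLOX libraries, and CKO replicate 7 lay above FLOX replicate 3. Its difference was not called (log2 fold change -0.19 with SE 0.07, adjusted p = 0.0544 in edgeR), although 3 of 17 other fits called it lower, among them those without FLOX replicate 3 and without FLOX replicate 6. A gene total does not resolve the floxed exons. Lyz2, the driver's locus, ranged from 1809 to 2387 CPM in CKO, below all FLOX libraries (6906 to 8294 CPM). Assigned read pairs ran from 11764855 to 18939948 per library. All 8 macrophage markers were present and tested: Csf1r, Cd68, Mertk and C1qb fell, Fcgr1 rose, and Adgre1 (F4/80), Itgam and C1qa were not called. Their summed level was 5183 to 5991 CPM in CKO and 6547 to 6808 CPM in FLOX, without overlap. The extraction protocol speaks of islets, but all 6 islet markers, among them Ins1, Ins2 and Gcg, had 0 counts in every library. Markers of other cell types were low except for Csf3r, but these lists also separated the groups, apart from the dendritic and islet ones. The neutrophil markers, mostly Csf3r, summed to 121 to 150 CPM in CKO and 218 to 314 CPM in FLOX. In CKO the summed level was higher for B cell markers (1.35 to 1.91 against 0.497 to 1.24 CPM, mostly Cd79b, with Pax5 at 0). It was also higher for stromal and endothelial markers (12.4 to 15.04 against 8.13 to 9.68 CPM, mostly Pecam1). T and NK cell markers were lower (0.593 to 1.05 against 1.42 to 2.38 CPM, mostly Cd4, with Cd3e, Cd8a and Ncr1 at 0). So were mast cell and basophil markers (4.81 to 5.47 against 7.29 to 9.44 CPM, mostly Kit, with Mcpt8, Fcer1a and Ms4a2 at 0). Dendritic cell markers overlapped (2.01 to 2.96 against 1.92 to 2.32 CPM). The part of these cells in the results was not tested. In bulk RNA, fewer cells of a type and less RNA per cell cannot be told apart.

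The upstream regions of Cebpa, Cebpb and Klf2, which fell, are shown beside that of Klf4, a relative that was not called, because members of these families can bind their own and each other's promoters. Of the 9 members, 6 had a RefSeq promoter window (GRCm38.p6, the assembly of mm10) of 300 bases, 250 before and 50 after the transcription start site, 7 windows in all since Runx1 has a distal and a proximal start. Spi1, Cebpd and Maf, the last of which also fell, had none. Each is printed 5′ to 3′ on the gene's strand as the 250 bases before the start site, and capitals mark matches to the motifs listed after them. Cebpa lies at chr7:35119043-35119292 and Cebpb at chr2:167688665-167688914, both on the plus strand.
Cebpa: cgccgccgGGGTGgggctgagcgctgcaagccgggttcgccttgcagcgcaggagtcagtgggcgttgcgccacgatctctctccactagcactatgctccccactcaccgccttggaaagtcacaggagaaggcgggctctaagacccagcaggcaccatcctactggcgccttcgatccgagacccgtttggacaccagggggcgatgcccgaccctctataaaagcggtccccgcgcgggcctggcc
Cebpb: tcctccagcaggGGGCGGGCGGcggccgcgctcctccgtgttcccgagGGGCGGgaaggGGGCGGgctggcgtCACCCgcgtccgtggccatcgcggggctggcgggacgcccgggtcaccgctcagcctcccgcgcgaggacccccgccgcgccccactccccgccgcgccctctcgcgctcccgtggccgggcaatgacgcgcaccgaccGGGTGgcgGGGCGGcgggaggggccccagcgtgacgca
Klf2 lies at chr8:72318812-72319061 on the plus strand and Klf4 at chr4:55532476-55532725 on the minus strand.
Klf2: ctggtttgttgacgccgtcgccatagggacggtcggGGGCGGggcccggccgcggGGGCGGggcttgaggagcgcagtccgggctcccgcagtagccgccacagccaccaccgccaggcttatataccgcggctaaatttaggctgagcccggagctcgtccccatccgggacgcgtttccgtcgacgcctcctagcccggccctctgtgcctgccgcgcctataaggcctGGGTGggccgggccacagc
Klf4: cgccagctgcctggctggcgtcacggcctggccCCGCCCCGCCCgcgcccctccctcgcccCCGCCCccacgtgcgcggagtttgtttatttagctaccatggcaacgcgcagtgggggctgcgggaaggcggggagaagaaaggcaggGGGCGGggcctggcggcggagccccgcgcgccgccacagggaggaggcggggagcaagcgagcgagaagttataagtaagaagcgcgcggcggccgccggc

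The windows of Cebpb, Klf2 and Klf4 each held several GC boxes, letters that KLF and SP factors can bind. GGGCGG, searched on both strands as were all motifs, occurred in 4 of the 7 members' windows and in 35.7% of all 32851 RefSeq windows of this length. There were 5 matches in the Cebpb window, 4 in Klf4, 2 in Klf2 and 1 in Klf6, some of them overlapping. The CACCC box of KLF factors occurred in 4 of 7 windows (Cebpa, Cebpb, the proximal window of Runx1, and Klf2) and in 57.5% of all windows. The C/EBP palindrome TTGCGCAA and its relaxed form TTGCNNAA, which includes it, were in none of the 7 and in 0.183% and 10.8% of all windows. The PU.1 core GAGGAA was in 1 (28.3% of all), between -46 and -41 of the proximal Runx1 start. The RUNX core TGTGGT was also in 1 (16.8% of all), with a pair of matches in reverse orientation at +29 to +34 and +37 to +42 of the distal Runx1 start. The RUNX variant TGCGGT (6.45% of all) and the MAF core TGCTGAC (4.67% of all) were in none. GC content was 80.7% for Cebpb, 74.3% for Klf4, 69.3% for Klf2, 67.3% for Cebpa and 63.0% for Klf6, against a median of 52.7% over all windows. For Runx1 it was 45.0% at the distal and 69.0% at the proximal start. A window without a match lacks only those letters and says nothing about the factor's binding. The GC-rich windows belong to factors that fell and to factors that were not called.

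Spi1 (ENSMUSG00000002111, chromosome 2, 91082390 to 91115756, mm10), the factor at the head of the lineage, was little different between the groups. It stood at 320, 289, 291 and 274 CPM in CKO replicates 2, 6, 7 and 8, and at 350, 306, 340 and 297 CPM in FLOX replicates 3, 4, 6 and 7. CKO replicate 2 lay above FLOX replicates 4 and 7, so the groups overlapped. The CKO mean was 293 ± 19.2 CPM and the FLOX mean 323 ± 25.5 CPM (± SD over 4 libraries per group). CKO was thus at 90.8% of FLOX, with a 95% interval of 80.5% to 102% (log2 fold change -0.14 with SE 0.07 and adjusted p = 0.13 in edgeR). These levels rest on 3815 to 6292 counts per library.

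Cebpa (ENSMUSG00000034957, chromosome 7, 35119293 to 35121928) had the largest change of the 9. It was at 160 CPM in CKO replicate 2 and at 130, 137 and 129 CPM in replicates 6, 7 and 8, against 226, 212, 213 and 201 CPM in FLOX. No CKO library reached the lowest FLOX library, and CKO replicate 2 came nearest. The mean fell from 213 ± 10.4 to 139 ± 14.4 CPM (± SD over 4 libraries per group; log2 fold change -0.61 with SE 0.07 and adjusted p = 3.29e-05 in edgeR). The interval ran from 57.6% to 74.1% of FLOX, and 31.6% of all called genes had a larger change. Over the other fits the log2 fold change stayed between -0.66 and -0.56. Cebpa is a single-exon gene whose messenger RNA gives a long and a short protein from different start codons, and gene counts do not resolve these.

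Cebpb (ENSMUSG00000056501, chromosome 2, 167688915 to 167690418), known as a factor of activated macrophages and of Arg1 induction, was also lower. It stood at 61.0, 49.96, 47.4 and 49.7 CPM in CKO replicates 2, 6, 7 and 8, and at 71.9, 65.9, 79.3 and 63.4 CPM in FLOX replicates 3, 4, 6 and 7. The groups did not overlap, with CKO replicate 2 only a little under FLOX replicate 7. The mean fell from 70.1 ± 7.08 to 52.0 ± 6.11 CPM (± SD over 4 libraries per group; log2 fold change -0.44 with SE 0.09 and adjusted p = 0.00203 in edgeR; 95% interval 63.3% to 86.4% of FLOX). Of its 1504 exon bases, 312 overlap exons of Tmem189 on the other strand, and the strand setting of the counting is not given in the sources used here. Tmem189 itself fell (log2 fold change -0.52 with SE 0.06 and adjusted p = 4.34e-05 in edgeR), and its part in the Cebpb counts was not tested.

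Cebpd (ENSMUSG00000071637, chromosome 16, 15887286 to 15891031), an acute-phase relative that inflammatory stimuli induce, was low throughout and not called. CKO libraries had 8.72, 9.29, 8.26 and 8.56 CPM and FLOX libraries 8.69, 6.81, 7.45 and 8.02 CPM, from 90 to 141 counts per library. Only FLOX replicate 3 lay within the CKO range. Its level was 112% of FLOX with a 95% interval from 94.5% to 134% (log2 fold change 0.17 with SE 0.10 and adjusted p = 0.2 in edgeR). Its exons share 562 of 3746 bases with Spidr on the other strand, and Spidr rose (log2 fold change 0.69 with SE 0.07 and adjusted p = 9.12e-06 in edgeR). The part of Spidr in the Cebpd counts was not tested.

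The balance between the C/EBP members was read from ratios of their counts, which do not depend on library scaling. The log2 ratio of Cebpd to Cebpa was -3.99 ± 0.17 in CKO and -4.79 ± 0.14 in FLOX (± SD over 4 libraries), higher by 0.79 and without overlap. The log2 ratio of Cebpb to Cebpa overlapped (-1.53 to -1.38 in CKO, -1.68 to -1.43 in FLOX), FLOX replicate 6 lying within the CKO range. The summed level of the 3 factors was 187 to 230 CPM in CKO and 272 to 307 CPM in FLOX. Of the 7 tested C/EBP family genes, these 3 included, 2 rose and 2 fell (23.8% and 21.6% among all tested genes). The median log2 fold change was 0.14. The risers were Cebpe, the C/EBP of late granulocytes, at 2.18 ± 0.388 against 1.16 ± 0.277 CPM (± SD over 4 libraries per group; log2 fold change 0.88 at adjusted p = 0.00586 in edgeR), and Ddit3 (CHOP), an inhibitory partner induced by stress (log2 fold change 0.32). Cebpg and Cebpz had log2 fold changes of -0.02 and 0.14 and were not called. Beside Cebpe stand the neutrophil markers: 3 of 5 tested rose, S100a9 and the granule genes Ngp and Ltf, each under 5 CPM in every library, while Csf3r fell. The whole neutrophil list, mostly Csf3r, was lower in CKO, at 121 to 150 CPM against 218 to 314 CPM in FLOX. Without Csf3r the direction reversed. The 8 other neutrophil markers in the files summed to 4.56 to 10.1 CPM in CKO and 1.92 to 3.23 CPM in FLOX. Elane and Retnlg were at 0 in all libraries. The part of the neutrophil markers in the Cebpe level was not tested.

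Maf (ENSMUSG00000055435, chromosome 8, 115682942 to 115707794) fell by a small amount. It was at 132, 133, 143 and 144 CPM in CKO replicates 2, 6, 7 and 8, and at 147, 176, 159 and 164 CPM in FLOX replicates 3, 4, 6 and 7. The highest CKO library lay just under the lowest FLOX library, so the groups were separate by a narrow margin. The mean fell from 162 ± 12.3 to 138 ± 6.54 CPM (± SD over 4 libraries per group; log2 fold change -0.23 with SE 0.07 and adjusted p = 0.0139 in edgeR; 95% interval 76.3% to 95.6% of FLOX). The call ended without CKO replicate 2 (edgeR adjusted p = 0.0654) or CKO replicate 6 (0.0818), and adjusted p over all other fits ran from 0.00329 to 0.11.

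Of 7 tested MAF and BACH genes 4 fell (Maf, the small MAF genes Maff and Mafk, and Bach1, a partner of small MAF proteins that represses heme-responsive genes). None rose by edgeR, DESeq2 or limma-voom, and 0 were higher at an unadjusted p under 0.05. Among all tested genes 21.6% were called lower and 23.8% higher in edgeR, and the list was not tested as a set. The log2 fold changes were -0.89 for Maff (1.82 ± 0.305 against 3.45 ± 0.711 CPM), -0.55 for Bach1 and -0.19 for Mafk (± SD over 4 libraries per group). The calls of Bach1 (without CKO replicate 6) and Mafk (without CKO replicate 6, 7 or 8 or FLOX replicate 3 or 4) ended when single libraries were left out. Over all other fits 1 to 5 of the list were called lower.

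Genes known as targets of large MAF factors went both ways. Of 9 tested, 4 fell and 3 rose (21.6% and 23.8% among all tested genes). The list's median was 0.04 on the log2 scale. Mertk, a receptor for dying cells, fell from 58.0 ± 10.4 to 33.7 ± 4.23 CPM (± SD over 4 libraries per group; log2 fold change -0.78 at adjusted p = 0.000282 in edgeR), and the complement gene C1qb fell by 0.43 on the log2 scale. Folr2 (0.33) and F13a1 (0.83, at 1.00 against 0.548 CPM) rose. The call of F13a1, which has 6 to 16 counts per library, ended in DESeq2 and without CKO replicate 2, 6 or 8 or without FLOX replicate 4 or 6. Over all other fits 1 to 3 were called higher and 2 to 4 lower, and the median ran from -0.11 to 0.13. Of the other called genes, Il10 rose (0.66, from 11 to 46 counts per library), and C1qc (-0.26) and Cd163 (-0.30) fell. The calls of Il10, C1qc and Cd163 held in 11, 12 and 8 of the 17 other fits.

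Runx1 (ENSMUSG00000022952, chromosome 16, 92601466 to 92826149) was not called. It was at 96.3, 79.7, 97.2 and 95.6 CPM in CKO replicates 2, 6, 7 and 8, and at 93.9, 124, 91.2 and 111 CPM in FLOX replicates 3, 4, 6 and 7. The libraries that stood out were FLOX replicates 4 and 7, above all CKO libraries, and CKO replicate 6, below all others. Its level was 87.9% of FLOX with a 95% interval from 74.2% to 104% (log2 fold change -0.19 with SE 0.10 and adjusted p = 0.151 in edgeR). Exons of Cebpa, Maf and Runx1 share 51, 440 and 106 bases with antisense genes (Gm45091, Gm15655 and Gm26626) that were not analysed here. Both Runx1 promoters feed the same gene count, so their use is not resolved.

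Of the partners and relatives of Runx1, Cbfb and Runx3 rose and Tle3 fell, which were the called genes among the 8 tested with Runx1 included. Among all tested genes 23.8% were called higher and 21.6% lower. Cbfb, whose protein stabilises RUNX proteins on DNA, had 193, 211, 211 and 217 CPM in the CKO libraries against 147, 151, 159 and 149 CPM in the FLOX libraries, with no overlap. It rose by 0.46 on the log2 scale (SE 0.06 at adjusted p = 4.33e-05 in edgeR). Runx3 was rare in FLOX (0.432 to 0.771 CPM) and rose to 2.43 to 3.71 CPM in CKO (log2 fold change 2.37 with SE 0.23 and adjusted p = 6.53e-06 in edgeR). Tle3, a Groucho corepressor that RUNX proteins can recruit, fell by 0.48 on the log2 scale. Tle1 (-0.11), Runx2 (0.15), Cbfa2t2 and Cbfa2t3 were not called, and Runx1t1 had 0 counts in all libraries. The differences between the fold changes of Runx1 and its relatives were not tested.

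Klf2 (ENSMUSG00000055148, chromosome 8, 72319033 to 72321656), a factor that restrains NF-kB driven genes, was lower on average but uneven among libraries. It was at 43.8, 44.3, 35.6 and 35.1 CPM in CKO replicates 2, 6, 7 and 8, and at 61.6, 36.2, 54.0 and 60.3 CPM in FLOX replicates 3, 4, 6 and 7. FLOX replicate 4 lay within the CKO range and the other 3 FLOX libraries above it. The mean fell from 53.0 ± 11.7 to 39.7 ± 5.03 CPM (± SD over 4 libraries per group; log2 fold change -0.42 with SE 0.15 and adjusted p = 0.0435 in edgeR; 95% interval 57.7% to 96.8% of FLOX). This call was close to the threshold: it ended in 11 of 17 other fits, with adjusted p between 0.00061 and 0.137 over all of them. It ended when any 1 of the other 7 libraries was left out, with adjusted p of 0.056 to 0.137 in edgeR. Without FLOX replicate 4 the log2 fold change was -0.56.

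Klf4 (ENSMUSG00000003032, chromosome 4, 55527143 to 55532466), which IL-4 induces through STAT6, was nearly level. It stood at 203, 185, 220 and 205 CPM in CKO replicates 2, 6, 7 and 8, and at 186, 202, 184 and 203 CPM in FLOX replicates 3, 4, 6 and 7. All FLOX libraries except replicate 6 lay within the CKO range. Its level was 105% of FLOX with a 95% interval from 94.0% to 117% (log2 fold change 0.07 with SE 0.07 and adjusted p = 0.404 in edgeR).

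Klf6 (ENSMUSG00000000078, chromosome 13, 5861482 to 5870394), a factor that enhances NF-kB and hypoxia responses in macrophages, had the highest mean CPM of the 9. It was at 330, 332, 400 and 403 CPM in CKO replicates 2, 6, 7 and 8, and at 310, 391.8, 292 and 356 CPM in FLOX replicates 3, 4, 6 and 7. Each group held both high and low libraries. Its level was 109% of FLOX with a 95% interval from 91.6% to 129% (log2 fold change 0.12 with SE 0.10 and adjusted p = 0.358 in edgeR). Klf6 has known splice forms with opposing activity, which gene counts do not separate.

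Of the 17 KLF family genes 11 were tested, and 3 rose and 2 fell (23.8% and 21.6% among all tested genes). The list's median was 0.12 on the log2 scale. Besides Klf2, Klf9, a glucocorticoid-induced factor, fell from 55.5 ± 14.4 to 35.6 ± 5.14 CPM (± SD over 4 libraries per group; log2 fold change -0.64 at adjusted p = 0.0143 in edgeR), a call that ended without CKO replicate 6. Klf16 (0.44), Klf7 (0.91) and Klf10 (0.23), a factor induced by TGF-beta, rose. The call of Klf10 ended without CKO replicate 6 or 8 or FLOX replicate 3, 4 or 7. No KLF gene was called lower in edgeR without CKO replicate 6, where 2 were called higher. The log2 ratio of Klf6 to Klf2 was 3.21 ± 0.35 in CKO and 2.69 ± 0.51 in FLOX, and that of Klf4 to Klf2 was 2.36 ± 0.27 and 1.90 ± 0.39 (± SD over 4 libraries per group). Both ratios overlapped between the groups, through FLOX replicate 4.

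Genes known to respond to KLF2 or KLF4 also split. Of 9 tested 4 rose and 2 fell (23.8% and 21.6% among all tested genes). The list's median was 0.20 on the log2 scale. Chil3 and Retnla, markers of alternative activation, changed by -1.90 and -1.10, whereas Arg1 (1.36) and the integrin gene Itgb7 (0.95) rose (edgeR adjusted p of 7.16e-05 or less for the 4 genes).

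**Figure D2:**
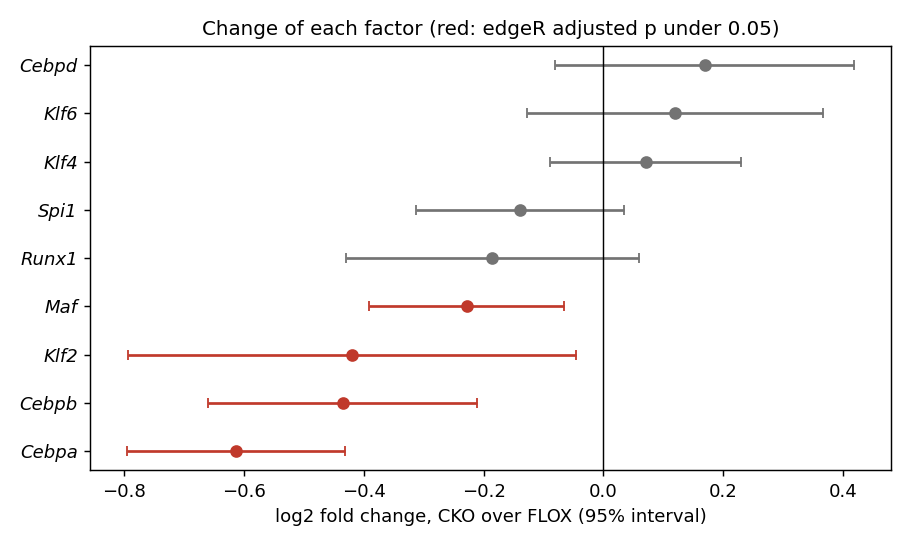
Log2 fold change of each factor, CKO over FLOX (horizontal axis), with its 95% interval from the edgeR fit over all tested genes; red marks an adjusted p under 0.05. Cebpa, Cebpb, Klf2 and Maf lie wholly to the left of 0, and the intervals of the other 5 include 0.

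The levels of the factors relative to each other were compared per length, as CPM per kb of merged exons. In FLOX, Spi1 was highest (119.9 ± 9.47 CPM per kb), followed by Cebpa (80.8 ± 3.95), Klf6 (76.8 ± 10.3), Klf4 (63.5 ± 3.23), Cebpb (46.6 ± 4.71), Klf2 (28.7 ± 6.31), Maf (19.6 ± 1.49), Runx1 (8.73 ± 1.26) and Cebpd (2.07 ± 0.215; ± SD over 4 libraries). Neighbours whose ranges overlapped in FLOX were Cebpa and Klf6, Klf6 and Klf4, and Klf2 and Maf. In CKO, Cebpa came 4th, at 52.8 ± 5.48 CPM per kb, after Klf6 (83.4 ± 9.33) and Klf4 (66.7 ± 4.68). There the ranges of Klf4 and Cebpa touched (60.7 to 72.2 and 49.0 to 60.8) and those of Klf6 and Cebpa did not (75.1 to 91.8 for Klf6). Spi1 stayed the highest (109 ± 7.14) and Cebpd the lowest (2.32 ± 0.116) in CKO. With the longest transcript as the length the FLOX order was the same, and in CKO Maf and Klf2 changed places. The merged exons of Runx1 span 12025 bases but its longest transcript 5861, so its level per kb was 8.73 by the first length and 17.9 by the second in FLOX.

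**Figure D3:**
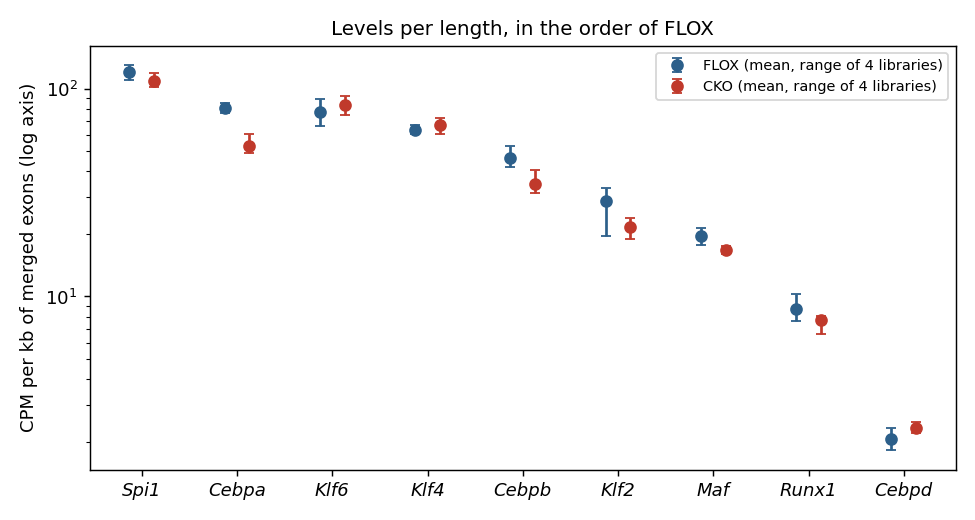
Level per length of each factor, as CPM per kb of merged exons on a log axis, in the order of the FLOX means; points are means and bars the range of 4 libraries, FLOX in blue and CKO in red. Cebpa lies above the means of Klf6 and Klf4 in FLOX and under both means in CKO.

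The FLOX libraries also differed among themselves in these factors. Among them, replicates 3 and 6 were both below replicates 4 and 7 for Maf, Runx1, Klf4 and Klf6 and both above them for Spi1, Cebpa and Cebpb. These 7 of 9 members compare with 63.1% of all tested genes that divided FLOX along the same line. For Runx1 and Klf6, the libraries of FLOX thus differed from each other by as much as the group means did or more, the SD being 15.2 CPM (Runx1) and 45.4 CPM (Klf6) in FLOX. In CKO the only line examined set replicates 2 and 6 against replicates 7 and 8. Replicates 2 and 6 lay below for Maf, Klf4 and Klf6 and above for Cebpb, Cebpd and Klf2. That is 6 of 9 members, against 33.8% of all tested genes. Values of 4 libraries often fall along such a line by order alone, so the count is no result about the members. Over all tested genes, CKO replicate 2 differed more from the other CKO libraries (chi-square over its degrees of freedom 7.42 to 9.63). Those differed less from each other (2.45 to 3.05). Neither division was planned or tested.

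**Figure D4:**
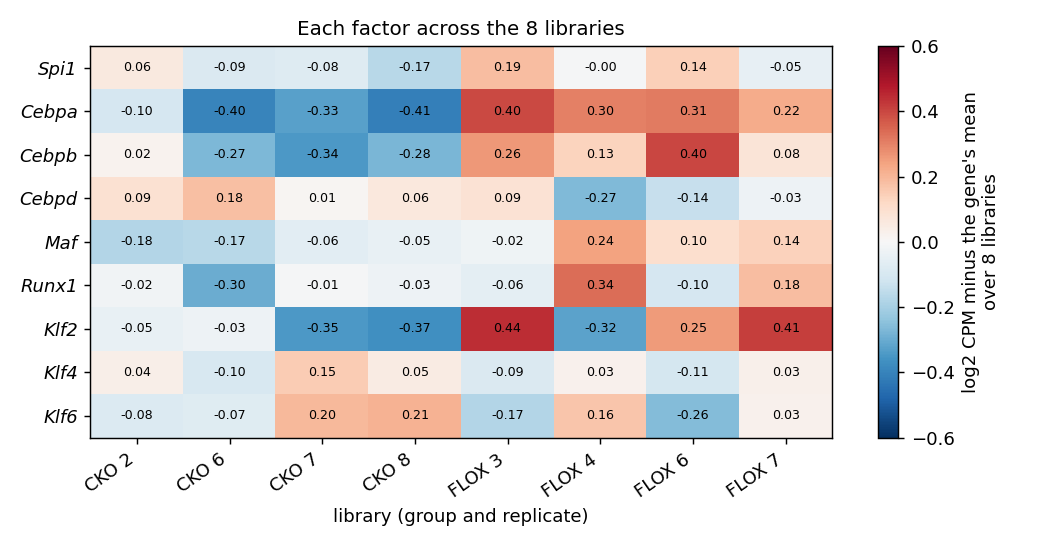
Log2 CPM of each factor (rows) in each of the 8 libraries (columns) minus the mean of that factor over the 8; red is above and blue below the factor's mean. Cebpa separates CKO from FLOX, while Klf6 and Runx1 vary as much within FLOX as between the groups.

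The genes whose profile over the 8 libraries was closest to each factor were found by the root mean square distance of log2 CPM, each gene centred on its own mean. The distance includes the difference between the groups, so a similar fold change follows from the choice of these genes. For Cebpa these were Dnase2a, the lysosomal DNase II (0.029), and the lectin gene Clec4a3 (0.035), where Cebpa itself varied by 0.32 about its mean. Dnase2a fell from 241 ± 17.5 to 157 ± 15.7 CPM and Clec4a3 from 217 ± 14.2 to 144 ± 13.4 CPM (± SD over 4 libraries per group). Closest to Cebpb were Mettl21a (0.061) and Relb (0.062), an NF-kB subunit, which both fell (log2 fold changes -0.45 and -0.46). Spi1 was matched by Gnas (0.013), which encodes a G protein subunit, and Dap (0.024). Maf was matched by Alkbh1 (0.026) and Aftph (0.036), and Runx1 by Zfp12 (0.049) and Igf2bp3 (0.053). For Klf2 the nearest gene was Clk2 (0.114, where Klf2 itself varied by 0.314 about its mean). Klf4 had Arhgap39 (0.044) and Ski (0.047), Klf6 had Ino80 (0.049) and Runx2 (0.058), and Cebpd had Pelp1 (0.057) and Cptp (0.061).

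Other ETS factors and macrophage regulators were read from the same fit. Of 15 tested ETS genes, Spi1 included, 3 rose and 3 fell (23.8% and 21.6% among all tested genes). Over the other fits 1 to 4 were called lower. Ets2 rose from 12.6 ± 0.879 to 41.3 ± 6.41 CPM (± SD over 4 libraries per group; log2 fold change 1.71 at adjusted p = 3.8e-07 in edgeR), Ets1 by 0.60 and Elk3 by 0.34. Spic, the PU.1 relative of iron-recycling macrophages, fell from 1.71 to 0.871 CPM (log2 fold change -0.98 at adjusted p = 0.00421 in edgeR), and the other PU.1 relative, Spib, was not called (1.74 against 1.21 CPM). Of 19 tested macrophage regulators outside the 9, 10 fell and 2 rose (21.6% and 23.8% among all tested genes). Over the other fits 6 to 11 of them were called lower and 1 to 3 higher. The list's median was -0.26 on the log2 scale. Irf8, a partner of PU.1 on myeloid enhancers, was at 138, 110, 109 and 108 CPM in CKO replicates 2, 6, 7 and 8, and at 192, 179, 173 and 180 CPM in FLOX. It fell by 0.64 on the log2 scale (SE 0.08 at adjusted p = 4.98e-05 in edgeR), about as far as Cebpa. Pparg (-0.57), the fatty acid receptor that IL-4 induces, Egr2 (-0.55) and Mitf (-0.53) fell as well. Irf4, the IL-4 induced relative of Irf8, was at 65.5 ± 5.44 and 70.7 ± 8.67 CPM (± SD over 4 libraries per group) and was not called (log2 fold change -0.11 at adjusted p = 0.359 in edgeR).

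Known targets of PU.1 and C/EBP factors went both ways. Of 19 tested 9 fell and 3 rose (21.6% and 23.8% among all tested genes). Over the other fits 7 to 11 were called lower and 3 to 4 higher. The list's median was -0.19 on the log2 scale. The fallers included the driver gene Lyz2 (-1.87), the growth factor receptor genes Csf1r (-0.42) and Csf3r (-1.05), and the NADPH oxidase subunit Ncf1 (-0.32). The 3 that rose were the scavenger receptor Msr1 (2.01), Arg1 (1.36) and the Fc receptor Fcgr1 (1.04). The summed level of the list was 11777 to 12770 CPM in CKO and 17898 to 19206 CPM in FLOX. Without Lyz2, the Cre locus, it was 9968 to 10384 CPM and 10650 to 11236 CPM, still without overlap.

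**Figure D5:**
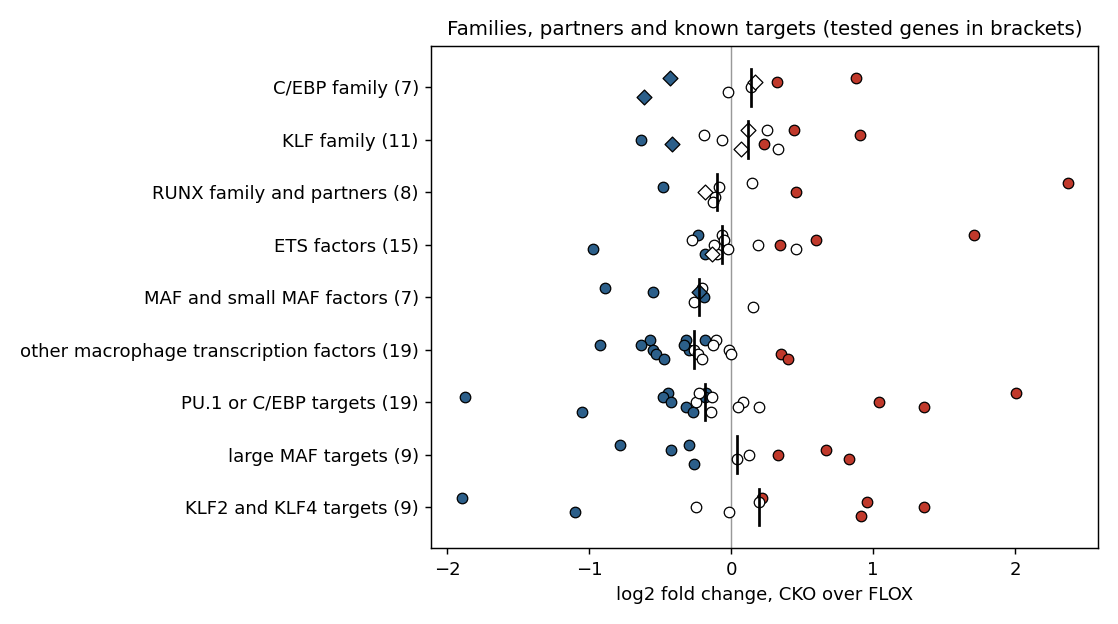
Log2 fold change, CKO over FLOX (horizontal axis), of the tested genes of each family, partner or target list (rows; number tested in brackets); diamonds are the 9 factors, circles other genes, red rose, blue fell, white not called, and black bars are the medians. The medians lie between -0.26 for the other macrophage transcription factors and 0.20 for the KLF2 and KLF4 targets. Among all tested genes 21.6% were called lower and 23.8% higher.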

How the data were processed

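Each library has a deposited table of raw counts, in whole read pairs assigned to each gene symbol and without scaling. Per the submitters' processing notes the authors aligned reads with HISAT2 2.0.5 to mm10 and counted them with HTSeq; not given in the sources used here: its version, annotation and strandedness. Pairs in HTSeq's unassigned classes (in no gene 6.52% to 9.60%, low quality 12.2% to 18.0%, ambiguous 1.56% to 1.69%, unaligned 0.819% to 1.19%, not unique 5.03% to 6.01%) were left out.

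Counts were fitted in R 4.3.3 with edgeR 4.0.16 (filterByExpr with minimum count 10 and total 15, TMM factors, robust quasi-likelihood F test, 6 residual degrees of freedom, Benjamini-Hochberg over all tested genes, called at 0.05). Standard errors are the size of the log2 fold change over the square root of F. The 95% intervals use these with a t quantile at 6 degrees of freedom. The edgeR test adds degrees of freedom from all genes, so the intervals are wider than its p-values imply. CPM use TMM-scaled library sizes; lengths and positions are from GENCODE M21. The code was tested on simulated data. Alternatives used DESeq2 1.42.0 and limma 3.58.1 (voom), other scalings, filters, left-out libraries and a replicate block. Profiles used log2 CPM with a prior count of 2. Libraries of a group differed from each other by more than counting noise (chi-square over its degrees of freedom 2.45 to 27.8), so none was merged.

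The members and gene lists were chosen with earlier results of these data known. Named genes are the 9 factors, Opa1, Lyz2, Irf8, Irf4 and Cbfb, the 2 nearest profiles of each factor and the 4 genes of smallest p in each list. Tmem189, Spidr, Csf1r, Csf3r, Ncf1, Itgam, Adgre1, Spib, Runx2, Cbfa2t2, Cbfa2t3, Runx1t1, Il10, C1qc, Cd163, the antisense genes and the cell type markers were named after their values were seen. Some genes that the rule names are not reported here.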

Additional observations from a re-analysis of the deposited data

Results flagged for a closer look

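Runx1 in CKO replicate 6 stood at 79.7 CPM, apart from the other 3 CKO libraries at 95.6 to 97.2 CPM; the gap divided by the group's range was 0.909. Of 18 groups of 4 libraries examined (9 factors in 2 genotypes) this was the only 1 set off in this way, and chance alone sets off about 1 in 20.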

How the results depend on the processing

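Spi1, Cebpa, Cebpb, Cebpd, Runx1, Klf4 and Klf6 kept their direction and their side of the threshold in all 17 other fits, and no member changed sign in any. Counts of calls depended on the settings as follows. A required fold change above 1.5 is a stricter call on the main fit and not among the 17. It left 1 member (Cebpa), 1218 higher and 565 lower genes. Leaving out single libraries gave 2 to 4 members, 2491 to 2885 higher and 1782 to 2491 lower genes. Leaving out CKO replicate 2 and FLOX replicate 6 together, an alternative chosen after seeing the data, gave 2 members (Cebpa and Cebpb). With the replicate number as a block, which pairs only replicates 6 and 7, 3 members (Cebpa, Cebpb and Klf2), 1985 higher and 1518 lower genes were called. The group difference then rests on the libraries numbered 6 and 7 alone, with 1 residual degree of freedom, and FLOX replicate 4 does not enter it. In that fit Maf had an adjusted p of 0.11, 1 MAF gene was called lower, 1 KLF gene higher, and 6 other macrophage factors lower; Maff and Klf7 were no longer called. The labels do not say what a number means. Deviations from the group means correlated across genes by 0.14 for the libraries numbered 6 and by -0.07 for those numbered 7. Removing the 20 most abundant genes moved the median of all genes by 0.02 on the log2 scale, more than the other scalings did. That removal ended the call of Klf2 (adjusted p = 0.0536), as did limma-voom (0.0622) and no filter (0.103). Of the 9 factors Cebpd has the fewest counts, 90 to 141 per library.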
